A study of Mus musculus with 7 samples.

Results

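The genes described here are 10 transporters that move bile acids and biliary lipids across the membranes of liver cells: Abcb11, Abcb4, Abcc2, Abcg5 and Abcg8 of the canalicular membrane, Slc10a1 and Slco1b2 of the uptake side, and Abcc3, Slc51a and Slc51b of the sinusoidal efflux side. They were taken by symbol or synonym from the mouse assembly GRCm38 (mm10), as 10 of 21532 protein-coding genes with a known strand. A binding peak was counted for a gene when its midpoint lay in the gene span or within 50 kb of it. The 141 separate regions collected in this way came from a catalogue of 87802 regions bound in any of the peak lists.

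Livers were profiled by ChIP-seq, the sequencing of DNA pulled down with an antibody, for the α and β forms of the retinoic acid receptor (RARα and RARβ) and for the α form of their partner, the retinoid X receptor (RXRα). They came from wild type male C57BL/6 mice aged 3 months. The mice received a normal diet (control) or a diet containing retinoic acid (RA), the ligand of the RARs, for 1 day according to the labels. The study's methods give a longer treatment, of wild type and RXRα-deficient mice. The paper describes ChIP-seq for RXRα and RARα only, and names no RA diet for it. The duration is therefore not settled for these livers. Each receptor and diet had 1 library, which gave 6 ChIP libraries and 6 peak lists, and the number of livers behind a library is not given in the sources used here. A single library of total chromatin (input) was not analysed here on its own. Without replicates there is no test, and every difference below compares these libraries only. Intervals on shares are exact (Clopper-Pearson) 95% binomial intervals, which cover counting error and not the spread between animals.

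The canalicular membrane faces the bile. Bile acids, phosphatidylcholine and cholesterol are exported across it by ATP-binding cassette transporters, and together they form the mixed micelles of bile. Bile acids return from the intestine in portal blood and are taken up again across the sinusoidal membrane, while another set of carriers lets them leave the hepatocyte towards the blood when they build up. Several of these genes are textbook targets of nuclear receptors that bind DNA as a pair with RXRα, such as the bile acid receptor FXR and the oxysterol receptor LXR, so an RXRα peak does not tell which partner was present. The RARs bind the same kind of hexamer, AGGTCA or AGTTCA, also as a pair with RXRα.

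The 250 bases in front of the annotated start are printed for 5 of the genes, because these windows carry the contrasts described below. Abcb11 had RXRα peaks that were among the highest of the genome over its start, Slc51b had RXRα peaks without any RAR peak there, Abcg8 shares its start region with Abcg5 and was covered in all 6 lists, Abcb4 was covered by RAR peaks in both diets, and no list covered the start of Slc51a. The sequences are from RefSeq (GRCm38.p6), run 5′ to 3′ on the strand of the gene and end at the base before the start. Capitals mark the hexamers AGGTCA and AGTTCA, or TGACCT and TGAACT where the hexamer lies on the other strand.
Abcb11, chr2:69342617-69342866, minus strand: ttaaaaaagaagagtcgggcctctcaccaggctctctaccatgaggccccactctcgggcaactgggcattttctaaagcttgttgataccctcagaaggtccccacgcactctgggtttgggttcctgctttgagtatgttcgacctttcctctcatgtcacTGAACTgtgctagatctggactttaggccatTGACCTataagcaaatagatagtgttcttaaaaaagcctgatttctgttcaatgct
Slc51b, chr9:65422774-65423023, minus strand: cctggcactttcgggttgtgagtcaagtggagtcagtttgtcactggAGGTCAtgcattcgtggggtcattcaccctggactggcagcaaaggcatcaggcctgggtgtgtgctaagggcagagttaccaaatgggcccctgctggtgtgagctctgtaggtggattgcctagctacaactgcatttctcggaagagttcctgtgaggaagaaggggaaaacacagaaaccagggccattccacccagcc
Abcg8, chr17:84682871-84683120, plus strand: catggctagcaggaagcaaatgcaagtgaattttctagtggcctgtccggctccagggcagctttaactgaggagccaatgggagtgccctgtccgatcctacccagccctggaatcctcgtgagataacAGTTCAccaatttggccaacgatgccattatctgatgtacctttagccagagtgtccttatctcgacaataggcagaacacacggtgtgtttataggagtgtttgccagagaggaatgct
Abcb4, chr5:8893471-8893720, plus strand: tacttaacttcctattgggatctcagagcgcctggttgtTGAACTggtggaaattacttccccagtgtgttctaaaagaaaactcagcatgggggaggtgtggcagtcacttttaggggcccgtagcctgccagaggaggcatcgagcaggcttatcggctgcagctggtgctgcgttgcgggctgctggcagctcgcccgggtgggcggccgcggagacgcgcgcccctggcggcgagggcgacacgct
Slc51a, chr16:32487880-32488129, minus strand: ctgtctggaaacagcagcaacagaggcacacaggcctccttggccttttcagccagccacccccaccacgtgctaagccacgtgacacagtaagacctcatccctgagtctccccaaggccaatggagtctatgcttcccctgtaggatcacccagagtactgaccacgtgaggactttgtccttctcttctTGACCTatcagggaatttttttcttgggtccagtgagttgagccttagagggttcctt

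Hexamers were searched on both strands in these windows. In Abcb11 they began at positions -87 and -56 from the start, in Slc51b at -203, in Abcg8 at -120, in Abcb4 at -211 and in Slc51a at -58. The Slc51a window thus held a hexamer and had no peak over it in any list. In 9 of the 10 genes a window could be read, 11 windows in all with the second starts of Slc10a1 and Abcg8, and Abcc3 was not in the promoter table. AGGTCA occurred in 6 of the 11 windows (Abcb11, Slco1b2, Slc51b, Slc10a1, Slc51a and Abcc2), and in 14.0% of 32851 windows of the same length in front of annotated starts of all genes. AGTTCA occurred in 4 (Abcb11, Abcb4, Slco1b2 and Abcg8), against 11.8% of all windows. An inverted repeat of AGGTCA with 1 base between the copies, and direct repeats with 1, 2, 4 or 5 bases between, were found in none of the 11 windows by exact match, and in at most 0.0335% of all windows. Exact repeats are so rare that none in 11 windows tells nothing about these genes, and repeats with mismatches were not searched. In Abcb11 the letters aggccat directly before the hexamer at -56 are 1 letter off such an inverted repeat. A match describes the letters only, and the sequence under the peaks away from the starts was not analysed here.

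Binding near the transporters was widespread but so was binding near genes in general. All 10 genes had a peak in the span or within 50 kb in the RARα and RXRα lists of both diets and in the RARβ list under RA, and 9 had one in the RARβ control list, where Slco1b2 had none. Among all protein-coding genes the same held, in the order RARα, RARβ and RXRα, for 83.6%, 70.2% and 83.7% in the control lists and for 84.8%, 77.8% and 84.3% in the RA lists. Within 10 kb of a start, and in the same order, 9, 4 and 9 of the 10 genes had a peak in the control lists, beside 62.3%, 44.5% and 61.8% of all genes. In the RA lists the numbers were 9, 8 and 9, beside 63.7%, 55.2% and 62.3%. Within 1 kb of a start they were 8, 4 and 8 with control, beside 49.1%, 35.2% and 42.5%, and 7, 8 and 9 under RA, beside 49.1%, 42.9% and 44.4%.

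In numbers of peaks, the control lists placed 55 of 35521 (RARα), 27 of 14968 (RARβ) and 108 of 61128 (RXRα) near the transporters, and the RA lists placed 69 of 44296, 63 of 29467 and 105 of 59624 there. The median gene of the 10 had 6 RARα, 3 RARβ and 11.5 RXRα peaks in the control lists, against 4, 1 and 5 for the median of all genes. In the RA lists these medians were 8.5, 8 and 11, against 4, 3 and 5. Longer genes have wider windows, and the windows of the 10 genes ranged from 110021 bp for Slc51b to 204335 bp for Abcb11. The windows also hold other genes: the closest annotated start belonged to a transporter for 70 of the 141 regions and to another gene for 71. Abcg5 and Abcg8 lie head to head with starts 110 bp apart and share 14 regions, so the 10 genes make up 9 separate loci.

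**Figure D1:**
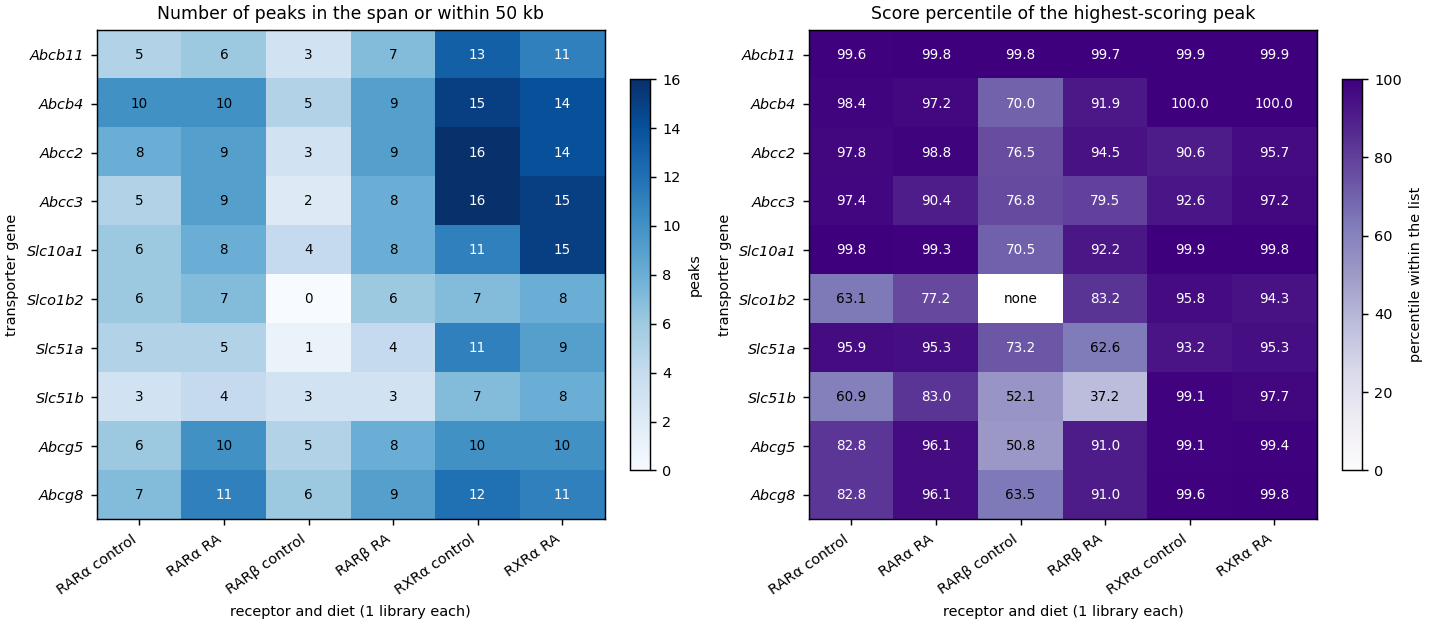
Number of peaks in the span or within 50 kb of each gene (left) and score percentile, within its own list, of the highest-scoring of those peaks (right), for each receptor and diet with 1 library each. The RXRα columns hold the larger counts, up to 16, and percentiles of 90.6 or more for every gene, and Slco1b2 has no RARβ peak under the control diet.

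Peaks were ordered by the peak caller's score, 10 times the negative log10 of its p-value. The words tall and high refer here to this score, as the lists give no height or enrichment. Scores are not comparable between libraries, and each was therefore placed by its rank or percentile in its own list, where the percentile is the share of peaks in that list that scored lower. The highest RXRα peak near each of the 10 genes was in the top 10% of its list under both diets, whereas such a peak was found for 34.3% of all genes in the control list and for 33.0% in the RA list. The 10 genes also had more RXRα peaks to draw the highest from, by the medians given above. With a 10 kb window, Slc51a had no RXRα peak and Abcc2 fell to percentile 89.6 under the control diet. Counting only peaks closest to a transporter start, Slc51a fell to 46.2 under control and 38.2 under RA. For RARα, 6 of the 10 genes had a peak in the top 10% under the control diet (36.2% of all genes) and 8 under RA (40.3%). For RARβ, Abcb11 was the 1 such gene under the control diet (18.4% of all genes), and 6 genes had one under RA (29.1%). Of the 108 RXRα control peaks near the transporters, 20.4% were in the top 10% of the list, beside 9.82% of the peaks near any gene, and their median percentile was 64.0 beside 49.6. Under RA these values were 18.1% beside 9.62%, and 62.2 beside 49.9. The median percentiles of the RARα and RARβ peaks near the transporters ranged from 49.9 to 52.3, close to those near any gene, which ranged from 50.3 to 51.8.

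**Figure D2:**
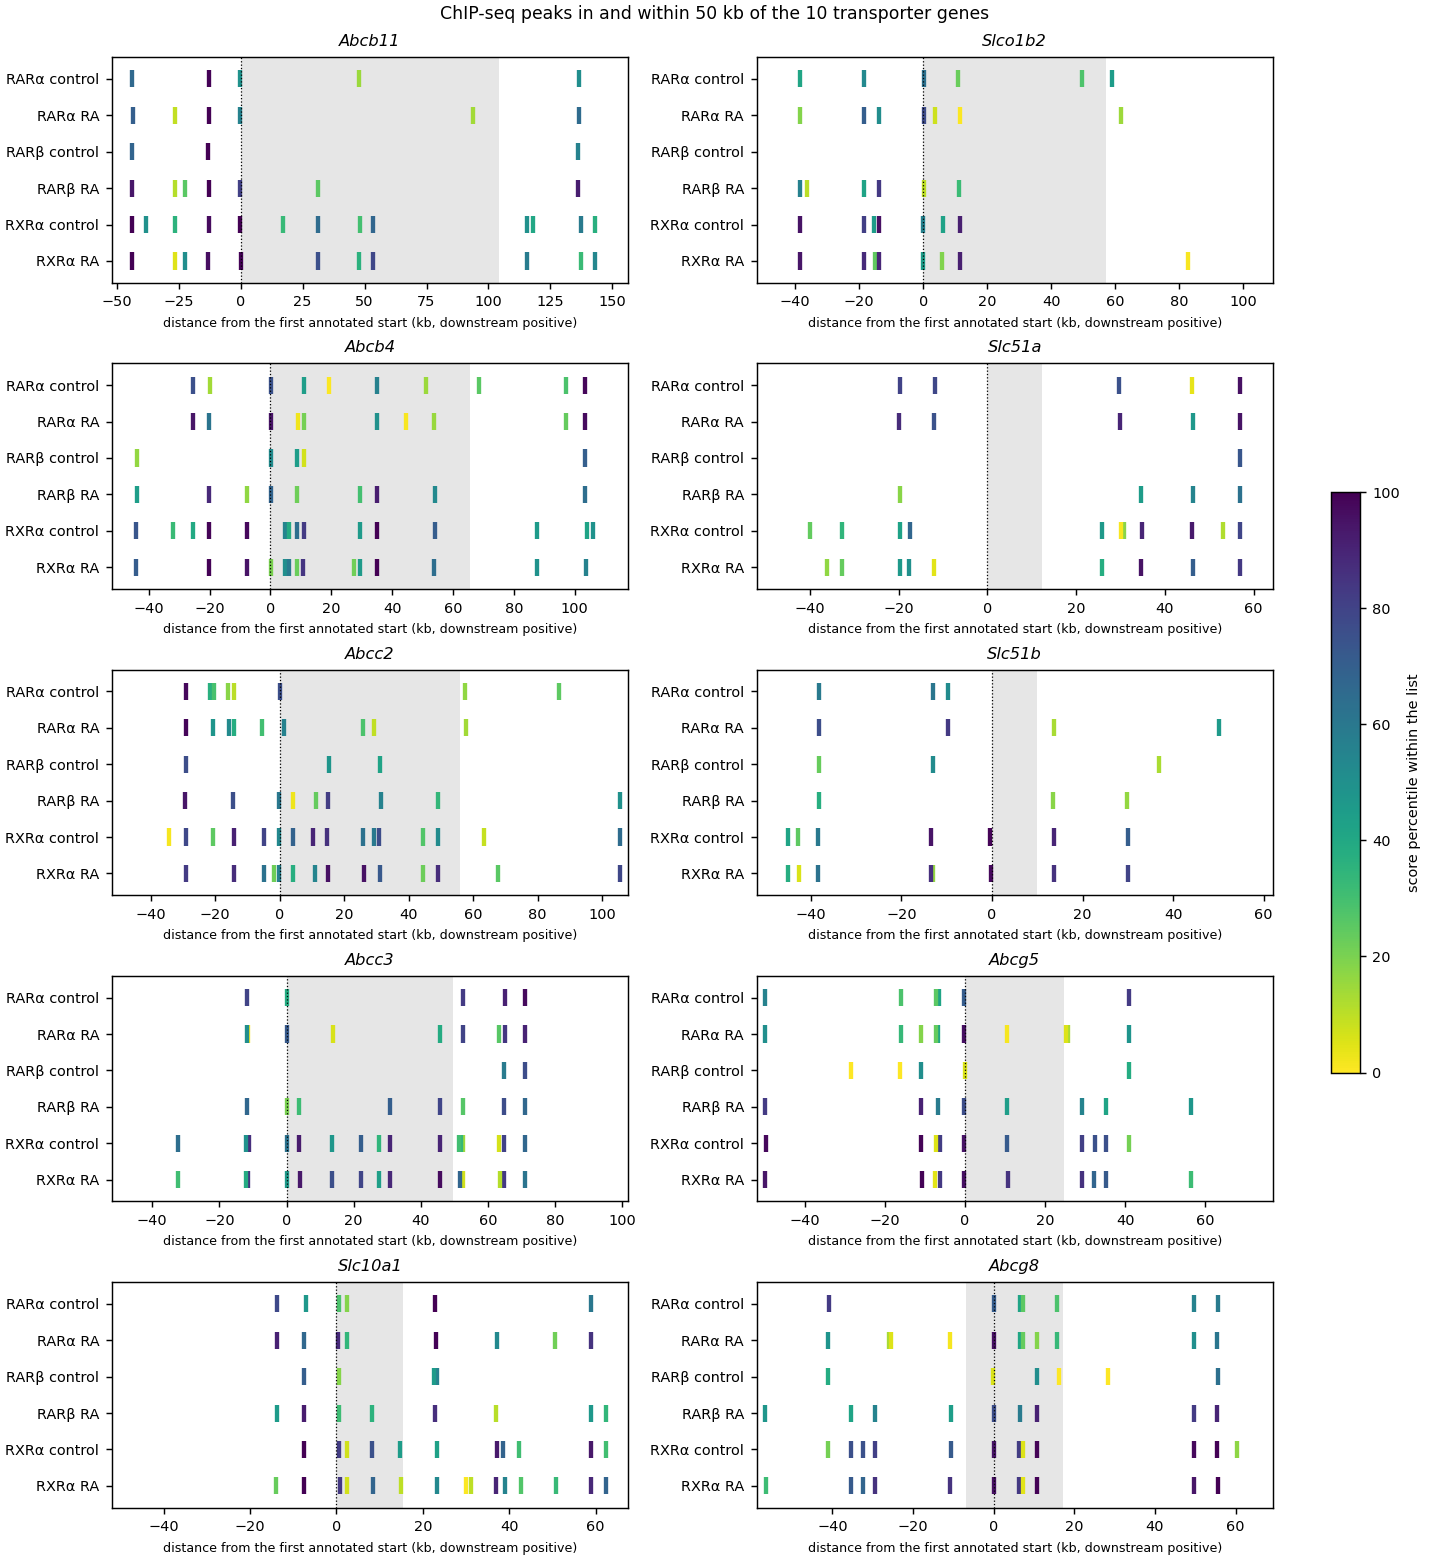
Peaks in the span (grey) and within 50 kb of each gene, by distance of the peak midpoint from the first annotated start in kb, downstream positive, with 1 row per list and the score percentile within the list as colour. Dark marks recur at the same distance in several rows, such as the one at -13.0 kb of Abcb11, and the span of Slc51a is empty in all 6 rows.

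Abcb11, the bile salt export pump, carries bile salts into the canaliculus and sets the rate of bile salt secretion. The gene spans chr2:69238282-69342616 on the minus strand. In control and RA lists it had 5 and 6 peaks of RARα, 3 and 7 of RARβ, and 13 and 11 of RXRα. Of all 10 genes it held the highest RAR peaks by percentile in both RARβ lists and in the RARα list under RA.

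The RAR peak stood upstream of the gene, at chr2:69355273-69355980, -13.0 kb from the start. RARα scored 825 under the control diet (rank 143) and 1032 under RA (rank 84), and RARβ scored 1144 (rank 31) and 929 (rank 91). RXRα was present at the same place with scores of 773 (rank 1909) and 757 (rank 2268). The region was thus called in all 6 lists, and in each of them it was in the top 5%. Only 32 of the 87802 regions had this property, and a region of this kind lay within 50 kb of 0.158% of all genes, 34 in number. The limit of 5% was chosen after these values had been seen. The closest annotated start is that of Abcb11 itself.

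At the Abcb11 start RXRα ranked above the RARs, the reverse of -13.0 kb, where the RXRα percentiles of 96.9 and 96.2 were below those of 99.6 to 99.8 for the RARs. RXRα peaks over the start scored 1640.2 under the control diet (rank 67) and 1343 under RA (rank 262). RARα peaks there scored 109.6 and 139, at percentiles of 48.9 and 55.7. RARβ was not called at the start under the control diet and scored 176 under RA (percentile 80.7). Another tall region, at -43.8 kb (chr2:69385766-69386999), was called in all 6 lists and lay closest to the start of Dhrs9. Its RXRα scores of 1800.4 (rank 38) and 1958 (rank 35) were the highest RXRα scores near Abcb11, while RARα scored 163 and 194 and RARβ 99.98 and 275. At the far end of the window, at 136.4 kb and closest to the start of Spc25, RARα scored 114 and 173 and RARβ 81.9 and 252, without an RXRα peak in either diet.

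Abcb4, the floppase that delivers phosphatidylcholine to bile, spans chr5:8893614-8959226 on the plus strand. It had 10 peaks of RARα in both diets, 5 and 9 of RARβ, and 15 and 14 of RXRα. The tallest peak was inside the gene, at 34.9 kb (chr5:8928167-8929154), where RXRα scored 2308 under the control diet (rank 18) and 2413 under RA (rank 16). These were the highest ranks of any peak near the 10 transporters. RARα scored 129 and 123 there, at percentiles of 56.6 and 50, and RARβ was called under RA only, with a score of 249 (percentile 91.9).

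At the Abcb4 start the RARs stood without RXRα under the control diet. RARα scored 204 and 443 (percentiles 74.6 and 94.8) and RARβ 78.2 and 136 (percentiles 52.1 and 68.1). RXRα was not called over the start under the control diet and scored 74.7 under RA, at percentile 20.3. Further regions in the top 10% of a list lay at -25.5 kb, -20.3 kb and -7.63 kb, with the start of Abcb4 as the closest one. The first was a RARα region, with scores of 210.3 and 432 and an RXRα score of 110.3 under the control diet only. The second and the third were RXRα regions, with scores of 1088 and 1252 at -20.3 kb and of 889.9 and 674 at -7.63 kb. The highest RARα peaks in the Abcb4 window, 603 and 528, lay at 103.8 kb, closest to the start of Crot, in a region called in all 6 lists.

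Abcc2, which exports conjugated bilirubin and other organic anions into bile, spans chr19:43782308-43838332 on the plus strand. Its window held 8 and 9 peaks of RARα, 3 and 9 of RARβ, and 16 and 14 of RXRα. Peaks at the start were of middle rank. RARα scored 213 under the control diet (percentile 76.1), while the closest RARα peak under RA lay at 1.30 kb and scored 139.9, RARβ scored 117 under RA only, and RXRα scored 153 and 169. Inside the gene, RXRα scored 406 and 723 at 14.7 kb (percentiles 85.9 and 95.7) and 195 and 707 at 26.0 kb (percentiles 62.7 and 95.5). Both places were within the top 10% under RA only. RXRα ranked lower under RA at 11.1 kb, where it scored 477 and 163 (percentiles 89.6 and 54.9) and was in the top 10% in neither diet. It also ranked lower under RA at -14.3 kb, where it scored 503 and 448 (percentiles 90.6 and 87.2). This was its highest control peak in the window, in the top 10% under the control diet only. RARβ was called at 14.7 kb in both diets, with 74.5 and 184, and RARα in neither. The 1 region of the window called in all 6 lists was at -29.2 kb, closest to the start of Cutc, with RARα scores of 558 and 632, RARβ scores of 119 and 288, and RXRα scores of 309 and 371.

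Abcg5 and Abcg8 pair up as the sterol transporter that secretes cholesterol and plant sterols into bile. Abcg5 spans chr17:84658174-84683011 on the minus strand and Abcg8 spans chr17:84676302-84700333 on the plus strand. Between them they are read from a common start region, chr17:84682545-84683897, which was called in all 6 lists. RARα scored 185 and 482 there (percentiles 71.0 and 96.1), RARβ 51.6 and 160 (percentiles 5.61 and 76.3), and RXRα 647 and 745 (percentiles 94.9 and 96.0). For each receptor the percentile was higher in the RA list. The Abcg5 window held 6 and 10 peaks of RARα, 5 and 8 of RARβ, and 10 and 10 of RXRα, and the Abcg8 window 7 and 11, 6 and 9, and 12 and 11, most of them the same peaks.

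Within Abcg8, 10.8 kb from its start, RXRα scored 1085 and 1252 (ranks 570 and 368), and RARβ 77.1 and 240 (percentiles 50.8 and 91.0). RARα was called there under RA only, with 68.5. Downstream of Abcg8, at 55.5 kb and closest to the start of Lrpprc, another region was called in all 6 lists, with RXRα scores of 1254 and 1543 (ranks 266 and 120) and RARα scores of 136 and 156. A region near the limit of the Abcg5 window, at -49.8 kb from its start, held RXRα scores of 861 and 643. The highest RARα control peak of both windows, 263, lay 40.9 kb from the Abcg5 start, where RARα scored 118 under RA. Just inside the 50 kb limit, peaks near Abcc2, Abcg5 and Abcg8 lay 49.5 to 49.9 kb from the span, with percentiles of 31.4 to 97.8, and just outside it peaks near Abcb4 lay 50.6 to 50.7 kb away, with percentiles of 35.2 to 65.0.

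Slc10a1, the sodium-taurocholate cotransporter that takes up conjugated bile acids from the blood, spans chr12:80953185-80968705 on the minus strand and has annotated starts at 80968705 and 80968079. Its window held 6 and 8 peaks of RARα, 4 and 8 of RARβ, and 11 and 15 of RXRα. With 3 regions called in all 6 lists, it had the most of the 10 genes. The first of them, as a merged region, covered both starts, with RARα scores of 74.9 and 331 (percentiles 28.2 and 88.0), RARβ scores of 56.0 and 74.8, and RXRα scores of 352 and 383. Peaks of all 6 lists lay over the 250 bases in front of the start at 80968079. Over those in front of the start at 80968705 lay the RARα peak under RA only. The second region lay at -7.35 kb and was a tall RXRα region, with scores of 1595 (rank 80) and 1495 (rank 149), beside 105 and 179 for RARα and 105 and 253 for RARβ. The third lay at 22.3 kb, where RARα was the tall receptor with 982 (rank 79) and 718 (rank 312), and RXRα scored 119 and 157, at percentiles of 42.9 and 53.4. The closest start to this region is that of Srsf5, and not Slc10a1. A RARα region at -13.8 kb scored 224 and 368, had RARβ and RXRα scores of 92.5 and 79.6 under RA, and had neither under the control diet. RXRα regions in the top 10% under the control diet also lay downstream, closest to Srsf5, with scores of 578 and 501 at 36.4 kb and of 596 and 485 at 58.3 kb.

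Slco1b2, the liver carrier for sodium-independent uptake of bile acids, bilirubin and drugs, spans chr6:141629452-141686646 on the plus strand. It was the transporter with no RARβ peak at all under the control diet, against 6 under RA. It had 6 and 7 RARα peaks and 7 and 8 RXRα peaks. Over the start, RARα scored 150.2 and 236 (percentiles 63.1 and 77.2) and RXRα 163 and 127 (percentiles 56.0 and 44.6), and RARβ scored 56.3 under RA. The taller RXRα peaks lay away from the start, with scores of 694 and 493 at -13.96 kb, 651 and 648 at -38.6 kb, and 535 and 546 at 10.8 kb. RARβ was called under RA at all 3 of these places, with 187, 110.6 and 75.3. None of the 13 regions in the Slco1b2 window was called in all 6 lists.

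Abcc3, an efflux pump of the sinusoidal membrane for bile acid and bilirubin conjugates, spans chr11:94343295-94393017 on the minus strand. In its window were 5 and 9 peaks of RARα, 2 and 8 of RARβ, and 16 and 15 of RXRα. The start was covered by low to middle peaks, with RARα scores of 89.3 and 204 (percentiles 38.4 and 72.0) and RXRα scores of 193 and 131, and with a RARβ score of 63.7 under RA only. RXRα peaks of higher rank lay inside the gene. They scored 562 and 611 at 3.86 kb and 487 and 840.1 at 45.7 kb, and the second of these is closer to the start of Ankrd40. The highest RARα scores, 532 and 361, belonged to a region at 71.1 kb that was called in all 6 lists and lay closest to the start of Luc7l3. A neighbouring region at 64.9 kb, closest to Ankrd40, was also called in all 6 lists, with 353 and 291 for RARα, 86.0 and 161 for RARβ, and 331 and 385 for RXRα.

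Slc51a and Slc51b are the α and β subunits of the organic solute transporter, which lets bile acids leave the cell across the basolateral membrane and works only as a pair. Their patterns at the start were opposite. At Slc51b (chr9:65412753-65422773, minus strand), RXRα scored 1095 under the control diet (rank 545) and 899 under RA (rank 1354) at -0.356 kb, and neither RAR was called within 1 kb in either diet. The closest RARα peaks were at -9.72 and -9.65 kb, and the closest RARβ peaks were more than 10 kb away. Another RXRα region of this window, at -13.2 kb and closest to Mtfmt, scored 649 and 432, and had RARα and RARβ scores of 142 and 78.2 under the control diet only. The 1 region called in all 6 lists lay at -38.3 kb, closest to Spg21, with 137 and 229 for RARα, 58.3 and 81.3 for RARβ, and 179 and 197 for RXRα. RXRα peaks within 1 kb of a start in both diets, without any RAR peak there, were found for 210 of 21532 genes (0.975%), and Slc51b was the 1 transporter of the 10 among them. This pattern was singled out after the values had been seen.

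At Slc51a (chr16:32475578-32487879, minus strand) there was no peak in the gene span and none within 10 kb of the start in any list. The closest were RARα peaks at -11.9 kb with a score of 229 under the control diet (percentile 78.5) and at -12.1 kb with 222 under RA, and an RXRα peak at -12.0 kb with 55.2 under RA. The tallest peaks of the window lay downstream. RXRα scored 583 and 248 at 46.4 kb and 479 and 698 at 34.7 kb, and RARα scored 471 and 457 at 57.0 kb, in a region called in all 6 lists. Pcyt1a has the closest start for these 3 regions, and of the 13 regions in the Slc51a window only 1 lay closest to Slc51a. For Slc51b this was 1 of 10, namely the region at its own start. In numbers, their windows held 5 and 5 peaks of RARα, 1 and 4 of RARβ, and 11 and 9 of RXRα for Slc51a, and 3 and 4, 3 and 3, and 7 and 8 for Slc51b.

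**Figure D3:**
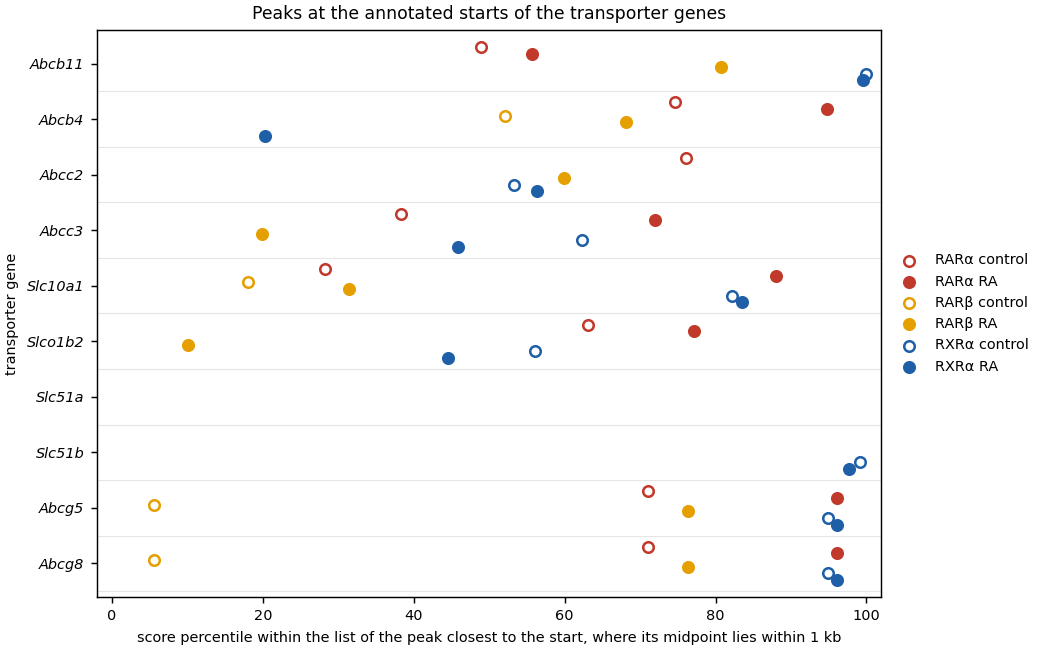
Score percentile, within its list, of the peak closest to an annotated start where the midpoint lay within 1 kb, for the 10 genes, with open circles for the control diet and filled circles for RA. The RXRα circles of Abcb11, Slc51b and the shared start of Abcg5 and Abcg8 lie at 94.9 or above, the RARα circle under RA lies to the right of the control circle at each start with both circles, and Slc51a has no circle. Abcc2 lacks its RARα circle under RA, a peak at percentile 55.9 against 76.1 with control, because its midpoint lies 1.30 kb away.

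Across the 10 starts, 3 genes had a peak within 1 kb in all 6 lists, namely Slc10a1, Abcg5 and Abcg8, beside 26.5% of all genes. Since Abcg5 and Abcg8 share their start region, these were 2 places. The percentile of the RARα peak closest to the start was higher under RA in each of the 7 genes that had one in both diets, which share 1 peak between Abcg5 and Abcg8, and in 45.7% of the 9978 genes of the genome with such a pair of peaks. Abcc2 went the other way: its start lay under RARα peaks of both diets, at percentiles of 76.1 and 55.9, but the midpoint of the broader RA peak was 1.30 kb away, so it is not among the 7. The comparison was made after the values had been seen. No such peak was called at the start of Slc51a or Slc51b in either diet.

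The comparison of diets asked how binding near the transporters differed between control and RA livers. The RARα lists held 55 and 69 peaks near the transporters, a ratio of 1.25, which was also the ratio of the whole lists. For RARβ the numbers were 27 and 63, a ratio of 2.33, against 1.97 for the whole lists and 1.92 for peaks near any gene. For RXRα they were 108 and 105, a ratio of 0.972 against 0.975. When every list was shortened to its 14968 highest-scoring peaks, the ratios were 1.00 for RARα (24 and 24 peaks), 1.19 for RARβ and 1.10 for RXRα. The excess of RARα peaks under RA, the size of the RARβ ratio and the direction of the RXRα ratio thus depended on the length of the lists. The lists do not give the depth of sequencing, so depth and binding cannot be told apart here.

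Gene by gene, RARα had more peaks under RA in 8 of the 10 transporters and the same number in Abcb4 and Slc51a, while 47.9% of all genes had more. RARβ had more under RA in 9 of 10, with 3 in both diets for Slc51b, and 56.7% of all genes had more. RXRα had more under RA in 3 (Slc10a1, Slco1b2 and Slc51b), fewer in 6 and the same number in Abcg5, and 29.5% of all genes had more. The share of all genes with fewer is not given here. All genes include those without a peak in either list, which cannot have more. The transporters also had more peaks than the median gene, so these shares are not a matched background. In whole liver, occupancy in more cells and stronger occupancy per cell cannot be told apart.

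Most sites that were called in 1 diet for RARα or RXRα were called in the other. With an overlap of at least 25% of the width of each peak, 46 of 55 RARα control peaks (83.6%, 71.2 to 92.2) were shared with the RA list, and 91 of 108 RXRα control peaks (84.3%, 76.0 to 90.6). In the other direction, control peaks were found at 47 of 69 RARα peaks of the RA list (68.1%, 55.8 to 78.8) and at 90 of 105 RXRα peaks of the RA list (85.7%, 77.5 to 91.8), beside 69.6% and 80.7% near any gene. For RARβ, 20 of 27 control peaks (74.1%, 53.7 to 88.9) were shared with RA, but 20 of 63 peaks under RA (31.7%, 20.6 to 44.7) were shared with control. Over peaks near any gene, the shares of control peaks were 84.6% for RARα, 79.0% for RXRα and 77.2% for RARβ, and 39.9% of RARβ peaks under RA were shared with control. Peaks that were not shared had lower scores within their list. The median percentile of the 9 unshared RARα control peaks was 25.7, against 57.7 for the shared ones, and for RARβ under RA it was 42.1 against 76.5.

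**Figure D4:**
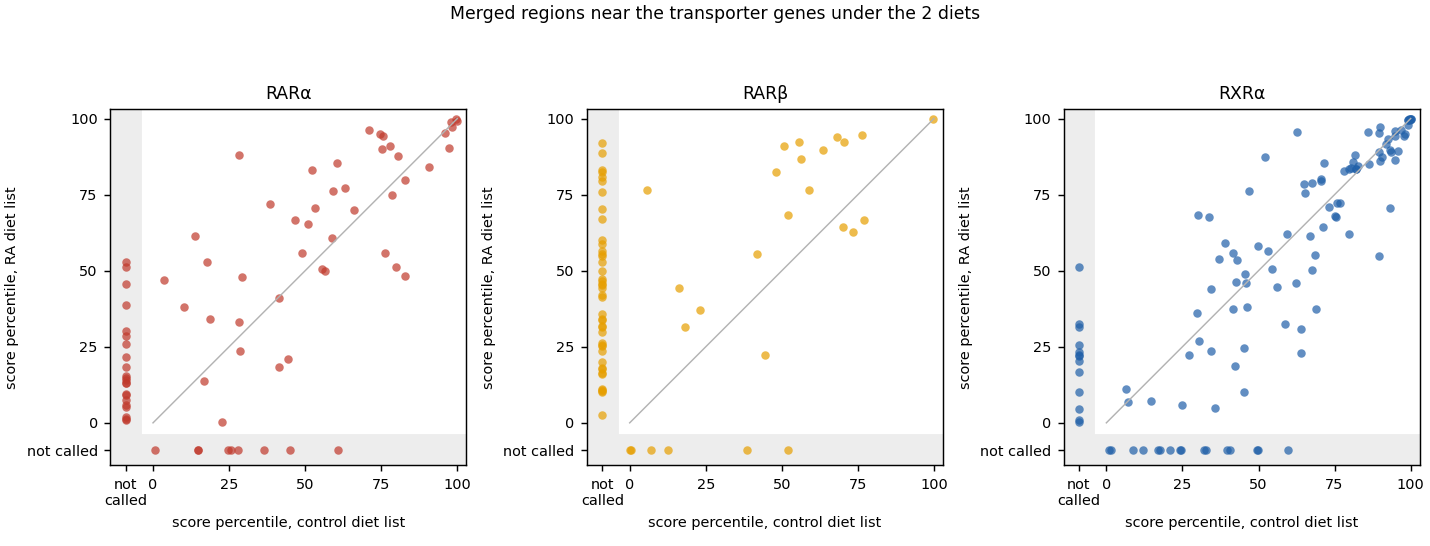
Merged regions near the 10 genes by score percentile in the control list (horizontal axis) and in the RA list (vertical axis) for each receptor, with 1 point per region, grey strips for regions not called in that diet and the diagonal as a line of equal percentile. For RARβ 43 regions lie in the strip of those called under RA only and 6 in the opposite strip, against 22 and 9 for RARα and 13 and 16 for RXRα.

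RARβ regions called under RA only were 43 in number, against 20 called in both diets and 6 called under the control diet only. By rank within their own lists, the 43 had a median percentile of 42.1 and a highest of 91.9, and the 6 had a median of 9.83 and a highest of 52.1. A score of at least 100 in the RA list was found for 15 of the 43. The highest 5 were at 34.9 kb (249) and -20.3 kb (219.9) of Abcb4, at -13.96 kb of Slco1b2 (187), at the region 49.8 kb upstream of Abcg5 (184) and at the start of Abcb11 (176). All of these 5 places had RXRα peaks in both diets. The other 10 lay near Abcc3 at 45.7, 30.9 and -11.7 kb, Abcc2 at -14.3 kb and its start, Abcg5 at 29.3 and -6.65 kb, Slco1b2 at -38.6 kb, Slc51a at 46.4 kb and Abcb4 at 54.1 kb, with scores from 104 to 171. Regions of this kind, with RXRα in both diets and RARβ under RA only, made up 39 of the 141 regions near the transporters (27.7%, 20.5 to 35.8), beside 16.3% of 75559 regions near any gene. The kind was singled out after the regions had been seen, and no test of the difference was made.

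For RARα, 22 regions were called under RA only, with a median percentile of 14.4, and 9 under the control diet only, with a median percentile of 25.7. Of the 22, 3 had a score of at least 100, at 36.4 kb of Slc10a1 (131), -13.96 kb of Slco1b2 (126) and 50.1 kb of Slc51b (112). Of the 9, 2 reached 100, at -13.2 kb of Slc51b (142) and at 59.1 kb of Slco1b2 (101). RXRα was called under RA only in 13 regions, 1 of which reached 100, at -22.3 kb of Abcb11 (148). It was called under the control diet only in 16 regions, 5 of which reached 100, at 29.2 kb of Abcc2 (179), at -38.3 kb (140) and 117.8 kb (113) of Abcb11, and at 106.1 kb (139) and -25.5 kb (110.3) of Abcb4. The median percentiles of these 13 and 16 regions were 21.8 and 24.4. In 89 regions RXRα was called in both diets.

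The comparison between receptors asked how far the RARs occupied RXRα sites near the transporters. Under the control diet, 37 of 55 RARα peaks (67.3%, 53.3 to 79.3) and 21 of 27 RARβ peaks (77.8%, 57.7 to 91.4) were shared with RXRα, beside 61.3% and 78.4% near any gene. Under RA, 49 of 69 RARα peaks (71.0%, 58.8 to 81.3) and 61 of 63 RARβ peaks (96.8%, 89.0 to 99.6) were shared with RXRα, beside 61.8% and 89.5%. Most RARβ peaks under RA were therefore on an RXRα peak, near these genes as near any gene. With lists of equal length the share near the transporters was 71.9% (23 of 32). Seen from RXRα, 21 of 108 peaks (19.4%, 12.5 to 28.2) were shared with RARβ under the control diet and 63 of 105 (60.0%, 49.98 to 69.4) under RA, beside 20.2% and 45.9% near any gene. With RARα these shares were 35.2% and 46.7%, beside 37.5% and 46.8%.

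Of the 141 regions near the transporters, 13 were called in all 6 lists (9.22%, 5.0 to 15.3, beside 10.6% of the regions near any gene). RXRα was called in both diets without any RAR in 24 (17.0%, beside 16.5%), and a RAR without RXRα in 23 (16.3%, beside 20.3%). These 3 shares were close to the background. The regions without RXRα numbered 5 each near Abcb4 and Slco1b2, 4 each near Abcc2 and the Abcg5 and Abcg8 pair, 3 near Slc51b, 2 near Abcb11 and none near Abcc3, Slc10a1 or Slc51a. The windows held 10 to 22 regions each, and whether these small counts differ between genes was not tested. In all, 35 regions were in the top 10% of at least 1 list, 25 of them for RXRα and 16 for a RAR. The same was not counted over the regions near any gene, so these numbers cannot be called high or low.

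To set the 10 genes beside related ones, 14 other transporters of the liver and the bile acid circulation were counted in the same way. Within 1 kb of a start, 10 of the 14 had a RARα peak, 5 a RARβ peak and 11 an RXRα peak in the control lists, and 10, 9 and 11 in the RA lists. Of all genes, 49.1%, 35.2% and 42.5% had one in the control lists, and 49.1%, 42.9% and 44.4% in the RA lists. The highest RXRα peak was in the top 10% for 11 of the 14 under the control diet and for 10 under RA, against 10 of 10 for the genes described here. Among all genes this held for 34.3% and 33.0%. For RARα the numbers were 4 and 8 of the 14, beside 36.2% and 40.3% of all genes. For RARβ they were 1 and 5, beside 18.4% and 29.1%. A pair of the 14 had the same highest RXRα percentiles, 97.03 under control and 97.04 under RA, so a peak may be counted for both. More RARβ peaks under RA than under control were found for all 14, beside 56.7% of all genes, which include genes without a RARβ peak in either list. Abcb1a, a drug efflux pump, and Npc1l1, a sterol uptake protein, had no peak within 1 kb of a start in any list, and Abca1, the cholesterol exporter of the sinusoidal side, had peaks there in all 6 lists and up to 28 RXRα peaks in its window.

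The likeness of patterns was measured by the distance between the percentiles of the highest peaks in the 6 lists. Among all genes outside the transporter windows, Cdk8 was closest to Abcb11 (0.256 percentile points), Nudt3 to Slc10a1 (1.91), Spatc1 to Abcc2 (2.23) and Dcaf10 to Abcb4 (2.54). Tm4sf19 had a distance of 0 to Slc51a because its highest peaks were the same peaks. Within the group, Abcb4 and Slc10a1 were the closest pair (2.56). For Slc51b the closest gene, Gsx2, was 10.2 points away, the largest such distance among the 10. Each distance to an outside gene is the smallest over all such genes, and distances within the group come from few genes. They cannot be set side by side. The Abcb11 percentiles were 99.6 to 99.9, so any gene near the top of all 6 lists lies close to it.

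The labelled tissue was checked on sets of marker genes by peaks within 10 kb of a start, which is no measure of expression. All 8 hepatocyte genes had an RXRα peak in both diets, 5 and 6 a RARα peak and 6 and 7 a RARβ peak. None of 5 Kupffer cell genes had one in any list, and at most 2 of 5 cholangiocyte genes, 2 of 5 stellate cell genes and 3 of 5 genes not of liver did. Of all genes, 61.8% and 62.3% had an RXRα peak there under control and RA. For RARα this was 62.3% and 63.7%, and for RARβ 44.5% and 55.2%. The 5 of 8 hepatocyte genes with a RARα control peak were thus near the share of all genes. So were the 3 of 5 genes not of liver, found for RXRα under RA. Cholangiocytes also carry bile acid transporters, and their part in the peaks was not tested.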

How the data were processed

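The authors sequenced single-end reads of 35 bp and, per the labels, processed them with CASAVA 1.4 and Bowtie on mm10. Per the study's methods, peaks were called with MACS. The deposited files are 1 peak list per library with 1 score per peak, 10 times the negative log10 of its p-value, not normalized between libraries. The lowest score was 50. Of the 245004 peaks, 56 to 169 per list lay past chromosome ends of NCBIM37, so coordinates were read as GRCm38. Depth per library is not in the lists.

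Spans came from RefSeq (GRCm38.p6), and starts and strands from its promoter table (17491 genes) or, with the outermost start, GENCODE M1 (4041 genes, Abcc3 included). Regions were peaks of any list merged on an overlap of 1 bp. Exons, introns and peak sequences were not analysed here. The members and gene lists were chosen with earlier results of these data known. Named were all 10 genes with their highest and closest peaks, regions within 1 kb of a start, in all 6 lists, in the top 10% of a list, or in 1 diet with a score of at least 100, and, of the other transporters, up to 4. Samples were grouped by the labels. Python 3.11.15 with pandas 2.3.3 and scipy 1.17.1 was used, and the counting was tested on simulated data. Alternatives were a 10 kb window, a score of at least 100, lists of equal length, closest starts only and other overlaps.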

Additional observations from a re-analysis of the deposited data

Results flagged for a closer look

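The ratio of peaks near the 10 transporters under RA to those under the control diet lay above 1 for RARα (1.25) and RARβ (2.33) and below 1 for RXRα (0.972). This stands out because the ratios lie on opposite sides of 1, although the RXRα ratio rests on 105 against 108 peaks. With lists of equal length the ratios were 1.00, 1.19 and 1.10, and none lay below 1. Each ratio rests on 1 library per diet, so the difference between receptors was not tested. The ratios of the whole lists, 1.25, 1.97 and 0.975, lay on the same sides of 1.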

How the results depend on the processing

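No value has a replicate check, depth per library is unknown, and no paired analysis was possible because each receptor and diet has 1 library. In what follows, lists are in the order RARα, RARβ and RXRα under the control diet, then under RA. With a window of 10 kb the peaks near the transporters numbered 25, 12, 52, 35, 31 and 51, and 94.1% of RXRα peaks under RA were shared with control and 100% of RARβ peaks under RA with RXRα. Counting only peaks closest to a transporter start gave 29, 13, 56, 38, 36 and 56 peaks and a share of 92.9% for RXRα under RA with control.

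With a score of at least 100, the peaks numbered 33 for RARα and 6 for RARβ under control and 40 and 31 under RA, 1 gene had a RARβ control peak within 10 kb, the RARβ ratio was 5.17 (from 6 peaks under control), RARβ control peaks were shared with RA and with RXRα at 100%, and RXRα peaks under RA with control at 92.2%. With lists of equal length, the peaks numbered 24 for RARα and 39 for RXRα under control and 24, 32 and 43 under RA, 5 genes had a RARα control peak within 10 kb, and the RARβ ratio was 1.19. The RARα ratio was 1.00, and the RXRα ratio turned from 0.972 to 1.10. The shares with RXRα were then 37.5% for RARα and 51.9% for RARβ under control, and 41.7% and 71.9% under RA, from lists that hold fewer RXRα peaks by construction. Any overlap of 1 bp, or merging on 50 bp, left the values they bear on within their limits. The percentile of a gene's highest peak was lower in 29 of 50 values with the 10 kb window, 49 of 58 at equal length, 22 of 50 with closest starts and 55 of 55 above a score of 100, and higher in none. Each of these settings only removes peaks, so by construction this percentile can stay or fall and cannot rise.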
